A study of Mus musculus with 12 samples.

Results

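Glycolysis and the hypoxia response were followed through 36 genes: 17 glycolytic enzymes, 7 regulators and transporters of glycolysis, and 12 genes of the hypoxia-inducible factor (HIF) pathway and its targets. Members were all probe sets (groups of short oligonucleotides that read a transcript) to which the annotation of the array gave one of these genes as the only symbol. Of the 36 genes, 33 were measured, by 69 of 45037 probe sets and among 18193 genes in all. They were 22 genes of glycolysis with 47 probe sets and 11 genes of the HIF pathway with 22 probe sets. Gpi1 and Eno1 had no such probe set, and the 3 probe sets of Bnip3l were shared with the symbol Bnip3l-ps, so these 3 members carry no value here. Each gene is represented by its brightest probe set. Of the 19 members with more than 1 probe set, 11 had another one whose group difference had the opposite sign, and none of these passed the test.

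The arrays held RNA of 12 bone marrow cultures taken on day 6. In 6 co-cultures, 3000 mesenchymal stem/stromal cells (MSCs) were seeded with 7000 hematopoietic stem/progenitor cells (HSCs), and in 6 MSC-only cultures 3000 MSCs were seeded with 0 HSCs. The labels describe all samples as bone marrow of male C57BL/6 mice aged 6 weeks, and the methods took the MSCs of co-cultures from mice that express EGFP. MSCs were sorted as Sca-1+ PDGFR-α+ cells lacking CD31, CD45 and TER119, and HSCs as Lin- Sca-1+ c-Kit+ cells. Neither labels nor methods state whether HSCs touched the MSCs or sat in inserts in these co-cultures. They also do not mention a second sort before RNA extraction and do not name samples with common mice or a common preparation, so p-values measure only the spread between these samples. In RNA of a whole culture, fewer cells of a type and less RNA per cell cannot be told apart.

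Glycolysis breaks glucose down to pyruvate and yields ATP without oxygen, and lactate dehydrogenase then turns pyruvate into lactate, which leaves the cell through monocarboxylate transporters. HIF-1α is hydroxylated by prolyl hydroxylases when oxygen is present and is then degraded. When oxygen is low it is stabilized, pairs with HIF-1β and activates genes whose promoters hold its response element, among them most glycolytic enzymes, Vegfa and Bnip3. Bone marrow is a tissue of low oxygen tension, and both MSCs and HSCs are known to rely on glycolysis there.

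HIF recognizes short DNA words, ACGTG and GCGTG, and promoters of members are printed to show where such words stand. They are those of the 4 HIF genes that were higher on one set of 6 arrays described further on, and of Slc16a1, the glycolysis gene with the widest gap between those sets. Ndrg1, Pfkl, Slc2a1 and Pdk3, which separated the same arrays, are not printed. The sequences are the 250 bases before the annotated transcription start site from RefSeq (mouse build GRCm38.p6), read 5′ to 3′ on the strand of the gene, with each ACGTG or GCGTG on either strand (CACGT and CACGC on the reverse) in capitals. Adm (adrenomedullin, a vasodilator peptide) lies at chr7:110627407-110627656 on the + strand, Bnip3 (a mitochondrial protein of mitophagy) at chr7:138909507-138909756 on the - strand, and Egln3 (the prolyl hydroxylase PHD3) at chr12:54203875-54204124 on the - strand. Vegfa (vascular endothelial growth factor A) has 2 annotated starts, with windows at chr17:46025164-46025413 and chr17:46032378-46032627 on the - strand. On this strand the first window lies downstream of the second, at a start inside the gene, and the second window is that of the upstream start. Slc16a1 (the lactate transporter MCT1) lies at chr3:104638414-104638663 on the + strand. Ldha (lactate dehydrogenase A), whose signals overlapped, is shown beside them with the first of its 2 windows, at chr7:46845554-46845803 on the + strand.
Adm: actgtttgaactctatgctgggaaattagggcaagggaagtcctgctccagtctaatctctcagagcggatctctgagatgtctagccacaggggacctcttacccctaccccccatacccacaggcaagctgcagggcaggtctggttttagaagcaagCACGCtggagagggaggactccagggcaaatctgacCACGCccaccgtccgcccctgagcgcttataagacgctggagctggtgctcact
Bnip3: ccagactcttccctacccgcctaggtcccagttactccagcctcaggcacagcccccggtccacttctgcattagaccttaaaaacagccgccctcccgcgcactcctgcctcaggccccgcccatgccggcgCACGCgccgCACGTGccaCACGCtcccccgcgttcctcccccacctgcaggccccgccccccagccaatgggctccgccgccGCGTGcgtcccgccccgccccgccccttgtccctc
Egln3: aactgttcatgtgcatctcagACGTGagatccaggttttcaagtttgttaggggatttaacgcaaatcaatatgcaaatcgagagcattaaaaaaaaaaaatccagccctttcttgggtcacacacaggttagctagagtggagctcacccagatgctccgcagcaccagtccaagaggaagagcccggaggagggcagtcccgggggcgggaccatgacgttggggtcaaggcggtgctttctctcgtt
Vegfa, first window: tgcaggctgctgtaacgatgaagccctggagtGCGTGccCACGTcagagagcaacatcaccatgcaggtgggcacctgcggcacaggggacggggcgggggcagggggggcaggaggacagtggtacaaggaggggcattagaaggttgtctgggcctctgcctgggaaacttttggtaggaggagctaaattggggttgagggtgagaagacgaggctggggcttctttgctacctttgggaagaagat
Vegfa, second window: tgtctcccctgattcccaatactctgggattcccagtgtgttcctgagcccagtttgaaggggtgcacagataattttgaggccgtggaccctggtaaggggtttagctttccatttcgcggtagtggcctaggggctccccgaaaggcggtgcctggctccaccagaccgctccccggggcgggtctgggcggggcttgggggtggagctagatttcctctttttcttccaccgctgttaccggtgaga
Slc16a1: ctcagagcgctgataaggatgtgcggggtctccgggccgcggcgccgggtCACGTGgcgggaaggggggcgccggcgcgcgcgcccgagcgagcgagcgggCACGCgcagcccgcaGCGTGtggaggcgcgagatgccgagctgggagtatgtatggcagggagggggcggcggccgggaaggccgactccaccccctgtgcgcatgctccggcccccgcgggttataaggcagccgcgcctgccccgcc
Ldha: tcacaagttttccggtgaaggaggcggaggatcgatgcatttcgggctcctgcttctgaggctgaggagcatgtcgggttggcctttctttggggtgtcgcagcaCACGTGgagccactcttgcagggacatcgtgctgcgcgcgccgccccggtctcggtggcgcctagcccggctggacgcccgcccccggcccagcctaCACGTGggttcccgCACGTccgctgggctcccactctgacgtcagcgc

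The Bnip3 window and the first of Ldha each held 5 matches, with the palindrome CACGTG counted on both strands. The Slc16a1 window held 4, those of Adm and the first of Vegfa 2 each, and that of Egln3 and the second of Ldha 1 each. The second window of Vegfa, before its upstream start, held 0, so both matches of Vegfa lay inside the gene. A match was present in 10 of 13 windows of HIF members (76.9%) and in 29 of 37 windows of glycolysis members (78.4%), against 12679 of 32851 promoters of all genes (38.6%). Windows of starts inside a gene, such as the first of Vegfa, are included in these counts. Both words contain CG, so GC-rich windows hold them more often. A match is a run of letters and not evidence that the factor binds there.

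The signal is the deposited linear intensity. Its 2% trimmed mean was 496.6 to 497.3 on every array, and its median was 77.2 to 89.0 in co-cultures and 74.8 to 85.5 in MSC-only cultures. Macrophage and monocyte markers (19 of 20 measured) were at a median percentile of 97.8 among all genes and pan-leukocyte markers (10 of 10) at 98.6, against 68.5 for MSC and stroma markers (18 of 20) and 31.9 for HSC markers (13 of 14). Ptprc, which encodes the CD45 that the MSC sort excluded, read 11519 to 12642 in co-cultures and 10425 to 13144 in MSC-only cultures. Pdgfra, which the MSC sort selected, read 407 to 1464 in co-cultures and 583 to 1162 in MSC-only cultures. The summed signal of macrophage markers was 234083 to 331604 in co-cultures and 230598 to 313745 in MSC-only cultures, and no marker of this list averaged below 16. Marco (25.4) and Ccr2 (34.1) nevertheless averaged below the median signal of every array. The labels give male mice, yet Xist, which is transcribed from an inactive X chromosome, read 13136 to 17840 in all 6 co-cultures and 16810 or more on the arrays numbered 3 and 4 of both groups. The Y-linked Eif2s3y read 1022 to 1331 in co-cultures 1, 2, 5 and 6 and 2604 to 2845 in MSC-only cultures 1, 2, 5 and 6, while it was at most 13.6 on the arrays numbered 3 and 4. In MSC-only cultures 1, 2, 5 and 6, Xist was 60.5 to 118. Outside numbers 3 and 4, the co-culture group therefore cannot be told apart from this difference in sex-linked signal.

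No gene of glycolysis or the HIF pathway passed the test for a difference between co-cultures and MSC-only cultures. The comparison addresses how cultures of MSCs differ in expression with and without HSCs. Differences are co-culture minus MSC-only on the log2(signal + 16) scale, on which dim transcripts appear to change less than they do. The limma test was adjusted for all probe sets by the method of Benjamini and Hochberg. Over the whole array, 2 of 45037 probe sets passed (0.00444%), and 0 of the 69 member probe sets did, each with an adjusted p of 1 from limma. At an unadjusted p under 0.05, 446 of 18193 genes (2.45%) were higher and 266 (1.46%) lower in co-cultures, and 0 of the 33 member genes were in either direction. The smallest p of any member probe set was 0.0655, at a dim probe set of Hif1a whose mean signal was 23.7. The 2 groups were without overlap for 38 of all genes (0.209%) and for 0 of the 33 members.

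The 15 glycolytic enzymes had overlapping signals in both groups. Of these, 7 had a higher and 8 a lower mean in co-cultures, with a median difference of -0.01, and all 18193 genes had a median difference of 0.01. Over the 22 glycolysis genes 12 were lower, a split that depended on the scaling and the arrays: 18 were lower with each array centred on its median and 5 on one set of 6 arrays described further on (the positive side). Pkm, the pyruvate kinase of the last ATP-forming step, had the largest difference, with a lowest, median and highest signal of 2587, 3223 and 3869 in co-cultures, against 2741, 3539 and 3831 in MSC-only cultures. Its log2 difference was -0.09 (SE 0.13, 95% confidence interval -0.37 to 0.20). Eno2, the gamma enolase that neurons express, read 83.4, 132 and 166 in co-cultures, against 105, 115 and 129 in MSC-only cultures, a difference of 0.08 (SE 0.17). Pgk1, phosphoglycerate kinase, read 15850, 16825 and 20272 in co-cultures, against 14322, 15810 and 20255 in MSC-only cultures, a difference of 0.06 (SE 0.11). Its other probe sets had differences of -0.07 and -0.13, so the sign depended on the probe set. For all 3 genes the groups overlapped, and for Eno2 the MSC-only cultures lay within the range of the co-cultures.

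The remaining enzymes overlapped as well. Among the hexokinases, which phosphorylate glucose on entry, Hk1 averaged 1029 ± 131 in co-cultures and 1039 ± 167 in MSC-only cultures (SD, n = 6 each, as in the values that follow). Hk2 averaged 2254 ± 161 in co-cultures and 2243 ± 236 in MSC-only cultures. Hk3 averaged 4786 ± 1215 in co-cultures and 4670 ± 1063 in MSC-only cultures. The phosphofructokinases, which carry the committed step, showed the same picture. Pfkl averaged 328 ± 84.8 in co-cultures and 332 ± 74.3 in MSC-only cultures. Pfkm averaged 422 ± 32.9 in co-cultures and 424 ± 89.9 in MSC-only cultures. Pfkp averaged 1473 ± 343 in co-cultures and 1526 ± 221 in MSC-only cultures. Aldolases split the hexose bisphosphate, and both measured ones had overlapping groups. Aldoa averaged 15404 ± 1373 in co-cultures and 16027 ± 2386 in MSC-only cultures. Aldoc averaged 1130 ± 389 in co-cultures and 1153 ± 245 in MSC-only cultures. Among the lower enzymes, the log2 difference was 0.04 for Tpi1 (triose phosphate isomerase) and -0.01 for Pgam1 (phosphoglycerate mutase). Ldha averaged 12826 ± 1598 in co-cultures and 12892 ± 2796 in MSC-only cultures, and its partner Ldhb, which favours the reverse reaction, averaged 1013 ± 68.2 in co-cultures and 1030 ± 104 in MSC-only cultures. The 95% confidence interval was -0.21 to 0.18 for Pgam1, -0.22 to 0.18 for Ldhb and -0.20 to 0.22 for Hk2, the narrowest members.

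Of the 7 regulators and transporters, 3 had a higher and 4 a lower mean in co-cultures, with a median difference of -0.04. Slc16a3, the lactate exporter MCT4, had the largest value of the 22 glycolysis genes at 0.19 (SE 0.34, 95% confidence interval -0.54 to 0.92). It read 36.7, 106 and 162 (lowest, median and highest) in co-cultures, against 31.1, 97.7 and 124 in MSC-only cultures. Slc16a1, the transporter MCT1, read 879, 1073 and 1658 in co-cultures, against 733, 1039 and 1508 in MSC-only cultures, a difference of 0.09 (SE 0.21). These lactate transporters spread widely within each group, and their groups overlapped. Slc2a1, the glucose transporter GLUT1, averaged 2703 ± 264 in co-cultures and 2839 ± 445 in MSC-only cultures. The bifunctional enzymes that set the level of fructose 2,6-bisphosphate, Pfkfb3 and Pfkfb4, had differences of -0.07 (SE 0.12) and -0.04 (SE 0.10). The pyruvate dehydrogenase kinases, which inhibit pyruvate dehydrogenase, had differences of 0.01 (Pdk1, SE 0.15) and -0.08 (Pdk3, SE 0.15).

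**Figure D1:**
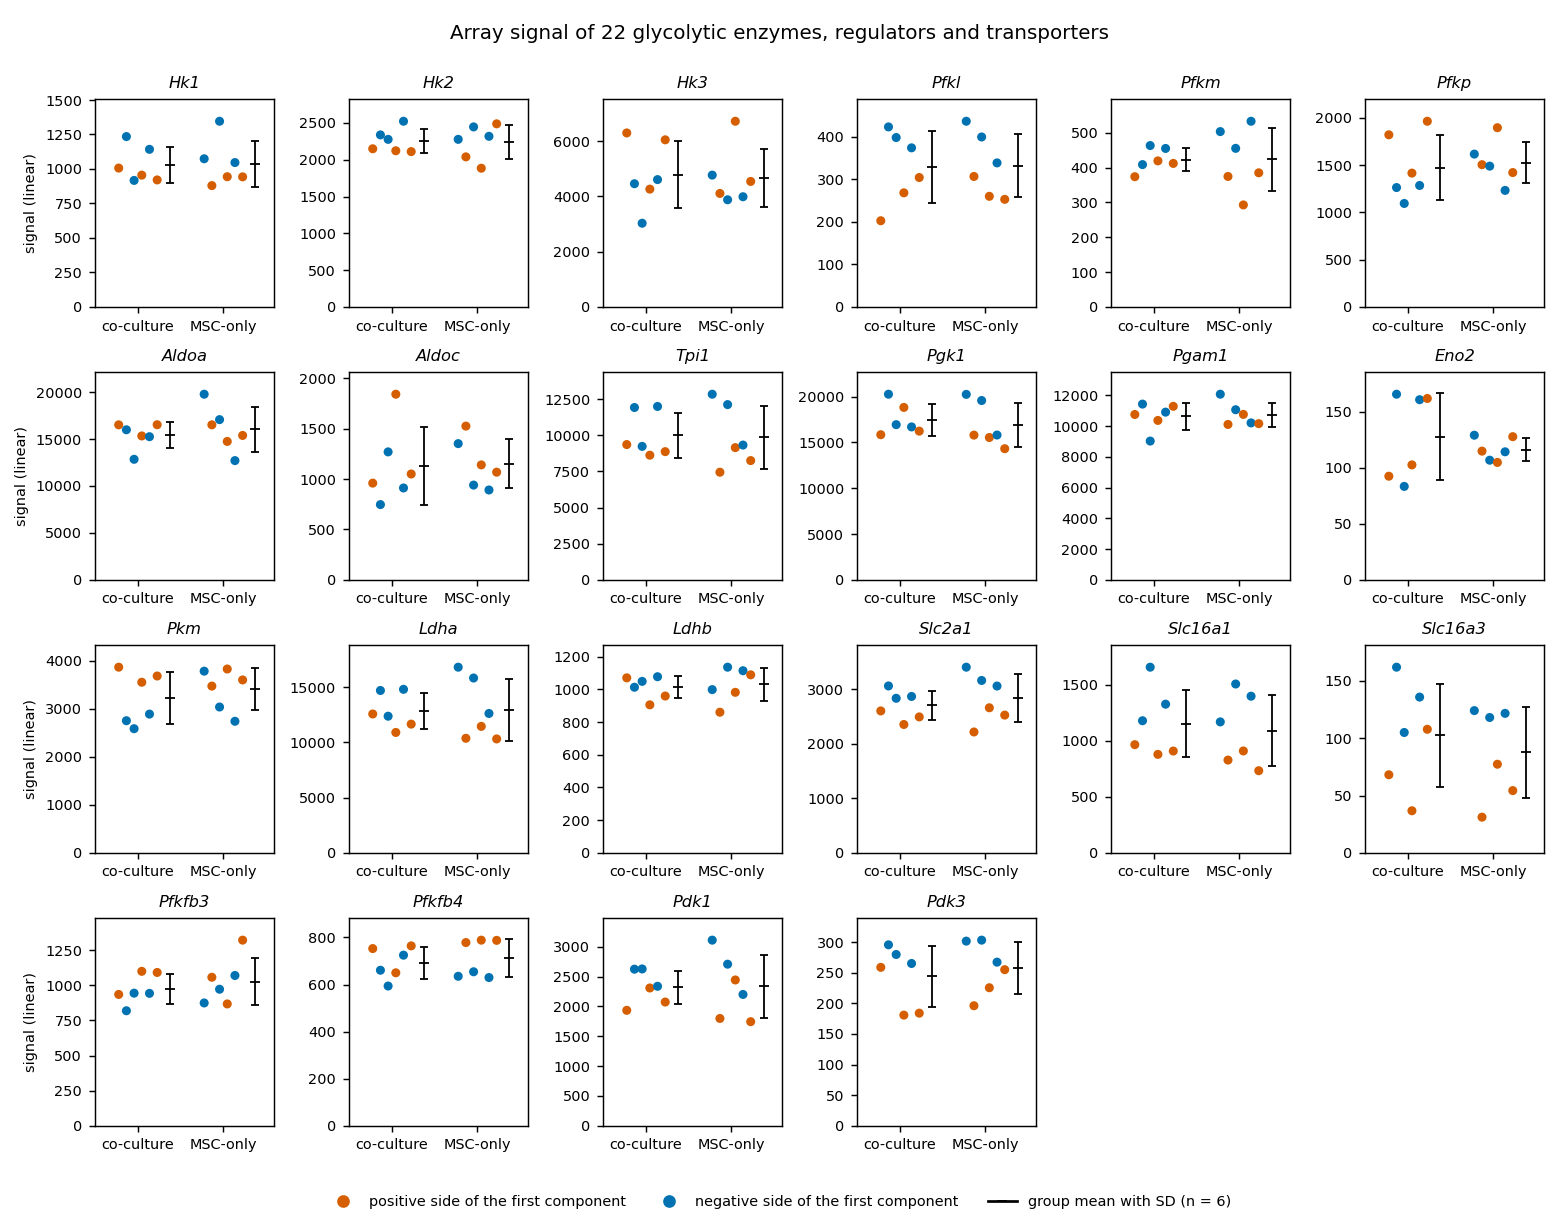
Signal on a linear axis starting at 0 of 22 glycolytic enzymes, regulators and transporters on 12 arrays, with co-cultures left and MSC-only cultures right. Each point is an array, coloured by its side of the first principal component, and bars are the group mean with SD (n = 6). The groups overlap in every panel, while Pfkl, Slc2a1, Slc16a1 and Pdk3 have all 6 blue arrays above all 6 orange ones.

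In the HIF pathway, 10 of the 11 genes had a lower mean and 1 a higher mean in co-cultures, with a median difference of -0.08. None of these differences exceeded the spread between arrays. Over all genes 8498 of 18193 had a lower mean, as did 22 of 43 other HIF genes described further on. The 11 genes share arrays, so their count was not tested. The count of these 11 with a lower mean was 10 without the arrays numbered 3 and 4. It was 4 of 11 on those arrays alone and 6 of 11 without co-culture 1. The one gene with a higher mean was Ankrd37, an ankyrin repeat protein induced by HIF. It read 78.9, 120 and 175 in co-cultures, against 62.2, 97.5 and 130 in MSC-only cultures, and its difference was 0.27 (SE 0.20, 95% confidence interval -0.15 to 0.70). Adm had the largest difference, at -0.43, together with the largest error (SE 0.62, 95% confidence interval -1.77 to 0.90), and on numbers 3 and 4 alone it was 0.32. It read 189, 737 and 1423 in co-cultures, against 271, 806 and 1963 in MSC-only cultures. For both genes each group spanned more than the distance between the medians.

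The factor and its hydroxylases also overlapped between the groups. Hif1a, the regulated subunit of the factor, averaged 9111 ± 1953 in co-cultures and 9751 ± 1839 in MSC-only cultures, a difference of -0.10 (SE 0.17), and on numbers 3 and 4 alone the difference was 0.31. Egln1, the prolyl hydroxylase PHD2 that marks HIF-1α for degradation, averaged 1335 ± 82.8 in co-cultures and 1401 ± 213 in MSC-only cultures. Egln3 averaged 223 ± 86.2 in co-cultures and 238 ± 127 in MSC-only cultures. Among the targets, Bnip3 had a difference of -0.19 (SE 0.42), Ndrg1, a stress-induced protein linked to differentiation, one of -0.18 (SE 0.31), and Ddit4, an inhibitor of mTORC1 signalling, one of -0.14 (SE 0.28). Car9, a carbonic anhydrase of the cell surface, and Kdm3a, a histone H3K9 demethylase, had differences of -0.08 each (SE 0.12 each). Vegfa averaged 1146 ± 736 in co-cultures and 1190 ± 775 in MSC-only cultures, a difference of -0.05 with a 95% confidence interval of -1.24 to 1.14. This interval includes changes of more than 2-fold in either direction, so the fit without a block could not exclude a change of that size for Vegfa. With the block described further on, which was chosen after the data had been seen, the interval of Vegfa was -0.33 to 0.23.

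**Figure D2:**
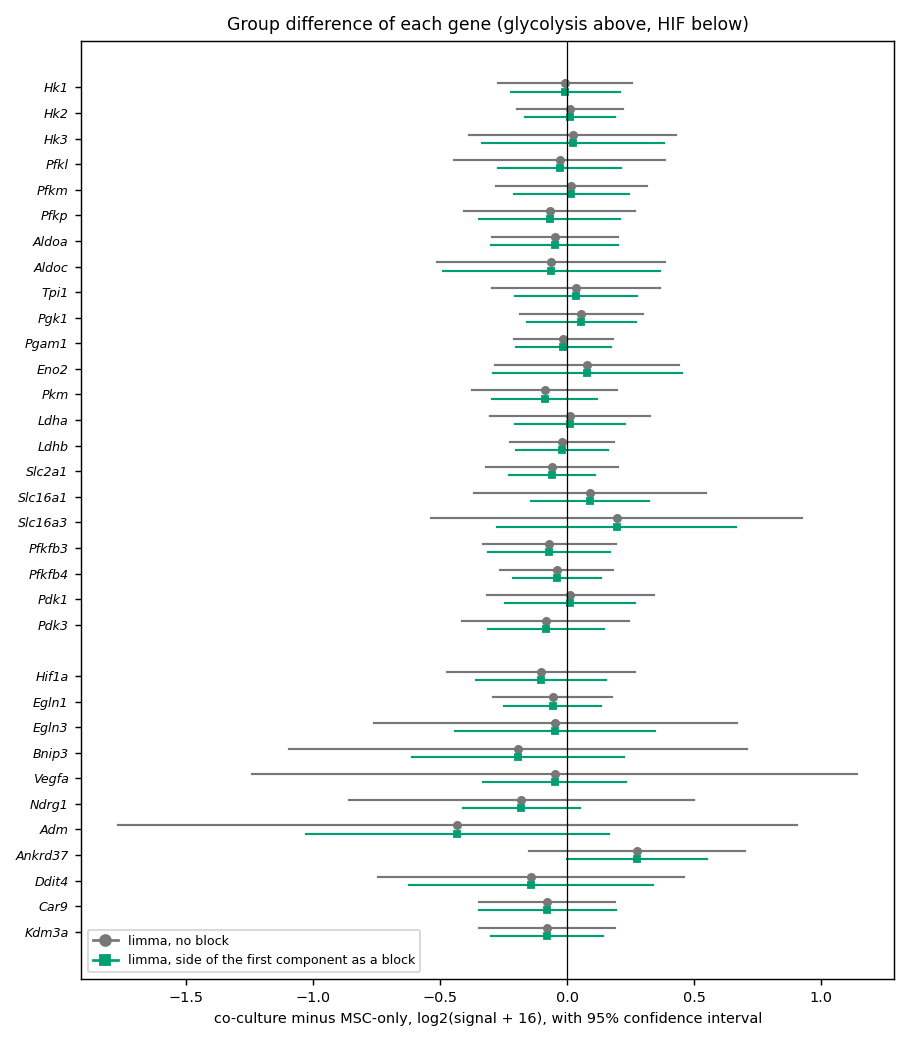
Difference of co-culture minus MSC-only in log2(signal + 16) with its 95% confidence interval for 33 genes, glycolysis in the upper block and HIF in the lower. Grey circles are the limma fit without a block and green squares the fit with the side of the first component as a block. Every grey interval includes 0, and the interval of Vegfa narrows with the block to -0.33 to 0.23.

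The widest array-to-array spread among the members was that of the HIF targets Adm, Vegfa and Bnip3. The ranges of the lists overlapped, with Egln1, Car9 and Kdm3a within the range of the enzymes, and the difference between the lists was not tested. Spread is the SD of log2(signal + 16) within groups, so that it does not contain the group difference, and its percentile is taken among the 1001 probe sets centred on it by mean level. Within glycolysis the median SD was 0.24, from 0.11 for Pgam1 to 0.64 for Slc16a3, while the median over all genes was 0.31. The median percentile was 63.9 for glycolysis, and 0 of 22 genes exceeded the 95th percentile. Within the HIF list the median SD was 0.52, from 0.16 for Egln1 to 1.19 for Adm, with a median percentile of 94.0. Of its 11 genes, 5 exceeded the 95th percentile: Adm and Vegfa at 99.6, Bnip3 at 98.7, Ndrg1 at 97.7 and Egln3 at 95.8. The widest glycolysis genes, Slc16a3 at 92.8 and Slc16a1 at 92.7, are lactate transporters. Between the lowest and highest array, the signal of the 15 enzymes differed by 1.32-fold (Ldhb) to 2.47-fold (Aldoc), and that of the HIF list by 1.49-fold (Egln1) to 10.4-fold (Adm).

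**Figure D3:**
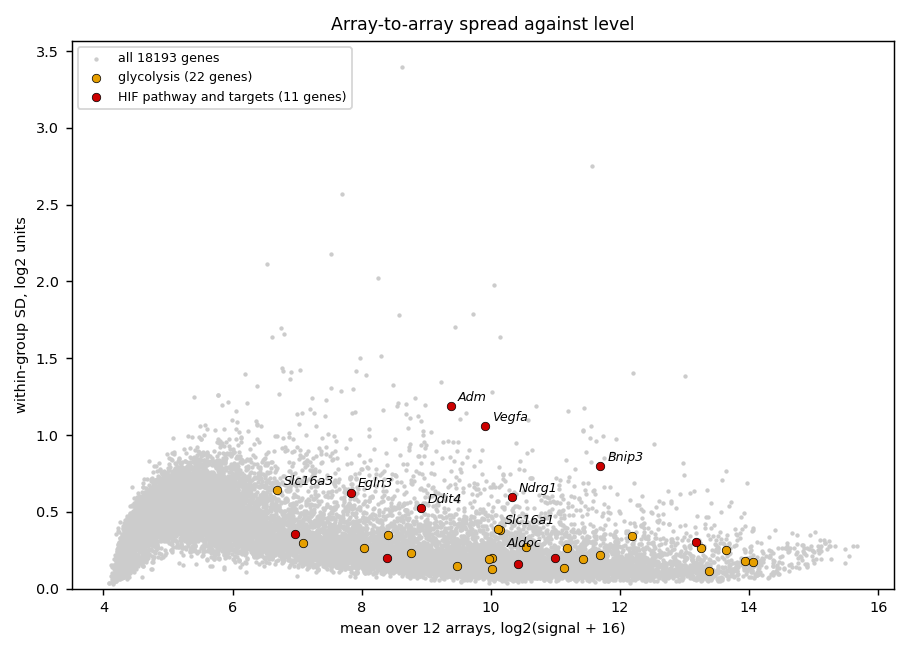
Within-group SD in log2 units against the mean over 12 arrays in log2(signal + 16), with 18193 genes in grey, 22 glycolysis genes in orange and 11 HIF genes in red. Adm (1.19), Vegfa (1.06) and Bnip3 (0.80) lie above most genes of like level, and the enzymes lie within the cloud.

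Of the 11 HIF genes, 5 followed a division of the arrays that crosses the labelled groups. In one direction there were 4, beside 4.63% of all genes, and in the other 1, beside 4.14% of all genes. The first principal component of the arrays, computed over 44968 probe sets without any member, held 21.6% of the variance. Its scores were 28.7 to 46.7 on co-cultures 1, 4 and 6 and MSC-only cultures 2, 4 and 6, here called the positive side. They were -46.4 to -31.9 on co-cultures 2, 3 and 5 and MSC-only cultures 1, 3 and 5, the negative side. Each side thus held 3 arrays of each group, and the same division was found with other constants, quantile normalization or a filter on dim probe sets. In MSC-only cultures the side followed odd and even array numbers, and in co-cultures it did so except for numbers 1 and 2. What the array numbers stand for is not stated in the sources. No label names the division, it was read from the data, and genes that respond to the same signals as the members remained in the component. The values are therefore a description without a test. Xist and Eif2s3y did not separate the sides, since each side held arrays of every kind.

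Vegfa, which drives the growth of blood vessels, divided the arrays most widely. In co-cultures its signal was 1602, 1771 and 2031 on the negative side and 358, 483 and 632 on the positive side. In MSC-only cultures it was 1722, 1905 and 2045 on the negative side and 441, 511 and 514 on the positive side. No array lay between 632 and 1602, a gap of 2.53-fold, and both groups showed the gap. The second Vegfa probe set read 217 to 358 on the negative side and 44.3 to 135 on the positive side, without overlap.

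Adm followed the same order. In co-cultures it read 940, 991 and 1423 on the negative side and 189, 209 and 535 on the positive side. In MSC-only cultures it read 1065, 1760 and 1963 on the negative side and 271, 330 and 548 on the positive side. The gap between the sides was 1.72-fold, and the second Adm probe set also separated them, at 666 to 1680 on the negative side and 183 to 556 on the positive side. Bnip3, which tags mitochondria for removal, read 4456, 4816 and 5542 in co-cultures and 4707, 5691 and 6303 in MSC-only cultures on the negative side. On the positive side it read 1502, 1540 and 3094 in co-cultures and 1690, 2396 and 2796 in MSC-only cultures, a gap of 1.44-fold. Among the 4 HIF genes that were higher on the negative side, Egln3 had the narrowest gap, 1.02-fold, with 203 to 446 on the negative side and 107 to 198 on the positive side. Its dimmer probe set overlapped.

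Ndrg1 ran the other way. It read 1537, 1819 and 1849 in co-cultures and 1779, 1879 and 2136 in MSC-only cultures on the positive side. On the negative side it read 697, 840 and 922 in co-cultures and 804, 964 and 1079 in MSC-only cultures, a gap of 1.42-fold. Of its 5 probe sets, 3 separated the sides in this direction and 2 overlapped. Although Ndrg1 is counted among HIF targets, its arrays were thus high where those of Vegfa, Adm and Bnip3 were low.

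**Figure D4:**
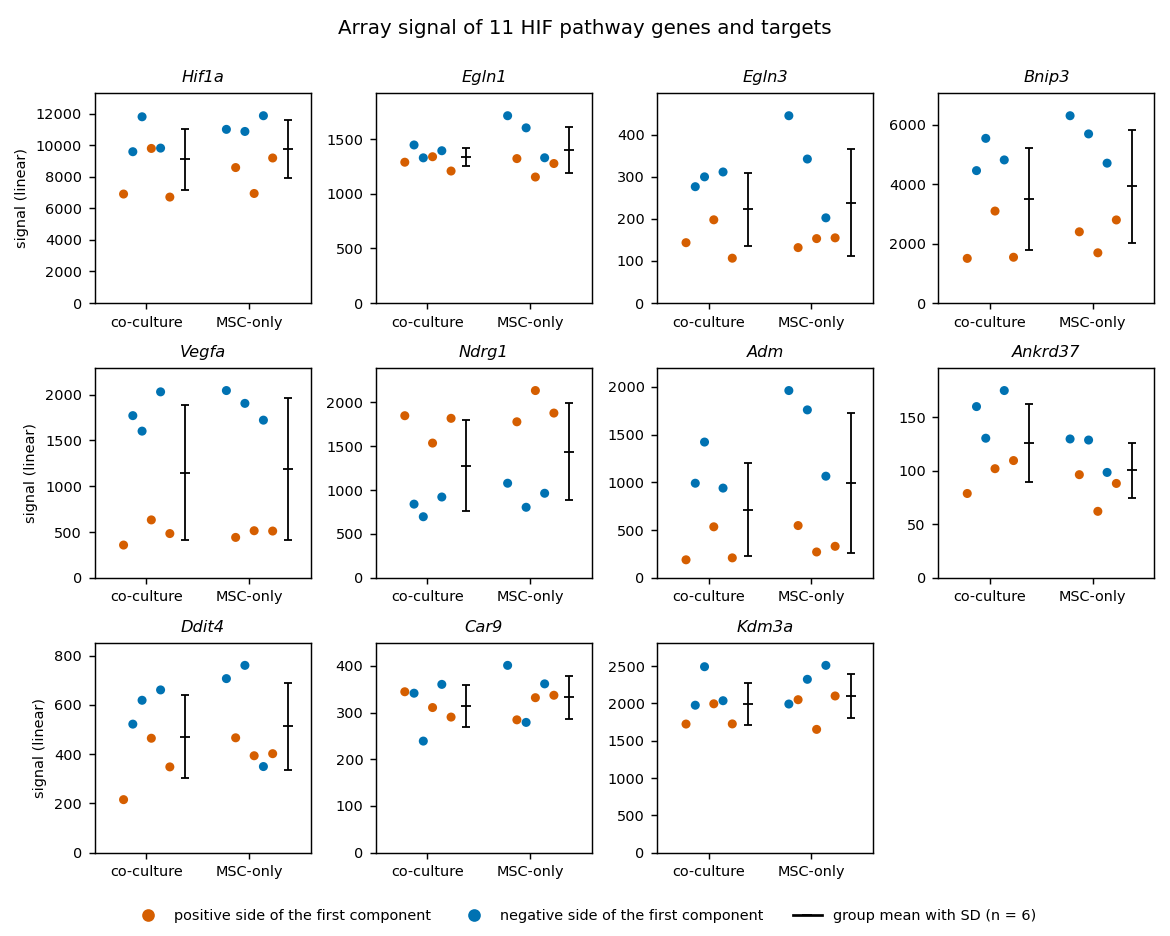
Signal on a linear axis starting at 0 of 11 HIF pathway genes and targets on 12 arrays, with co-cultures left and MSC-only cultures right. Points are arrays coloured by their side of the first principal component, and bars are the group mean with SD (n = 6). Vegfa, Adm, Bnip3 and Egln3 are higher on all 6 blue arrays and Ndrg1 on all 6 orange arrays, in both groups alike.

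In all, 8 of the 33 members had every array of the negative side above every array of the positive side, and 1 the reverse. Over all genes these shares were 843 of 18193 (4.63%) and 754 of 18193 (4.14%). Dim genes are included in them, whereas every measured member averaged 95.2 or more, and a share among genes of like level was not computed. The first component held 43.6% of the variance over probe sets with a mean signal of at least 100, against 21.6% over all. By list the counts of members were 4 and 1 of 11 HIF genes and 4 and 0 of 22 glycolysis genes. The other HIF members overlapped. Ankrd37 read 98.6 to 175 on the negative side and 62.2 to 110 on the positive side. Ddit4 read 350 to 761 on the negative side, where MSC-only culture 5 was the lowest, and 215 to 466 on the positive side. Hif1a read 9596 to 11878 on the negative side and 6718 to 9803 on the positive side, so that its own transcript was nearly separated. Car9 read 239 to 401 on the negative side, a range that contained the whole positive side.

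Within glycolysis, the 4 genes were Pfkl and, among regulators and transporters, Slc2a1, Slc16a1 and Pdk3. Slc16a1 read 1169 to 1658 on the negative side and 733 to 966 on the positive side, a gap of 1.21-fold. Pfkl, the liver-type phosphofructokinase, read 338 to 436 on the negative side and 202 to 307 on the positive side. Slc2a1 read 2836 to 3406 on the negative side and 2217 to 2662 on the positive side, and its 2 other probe sets overlapped. Pdk3 had a gap of 1.02-fold, which closed under quantile normalization. One of 4 probe sets of Pdk1 separated the sides, at 836 to 1172 on the negative side and 501 to 724 on the positive side. Ldha overlapped by a little, at 12364 to 16801 on the negative side and 10307 to 12565 on the positive side, and so did Tpi1, at 9230 to 12838 on the negative side and 7442 to 9356 on the positive side. By contrast Pkm, Pfkp and Hk3 had their highest arrays on the positive side. Of the 15 enzymes, 1 separated the sides.

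**Figure D5:**
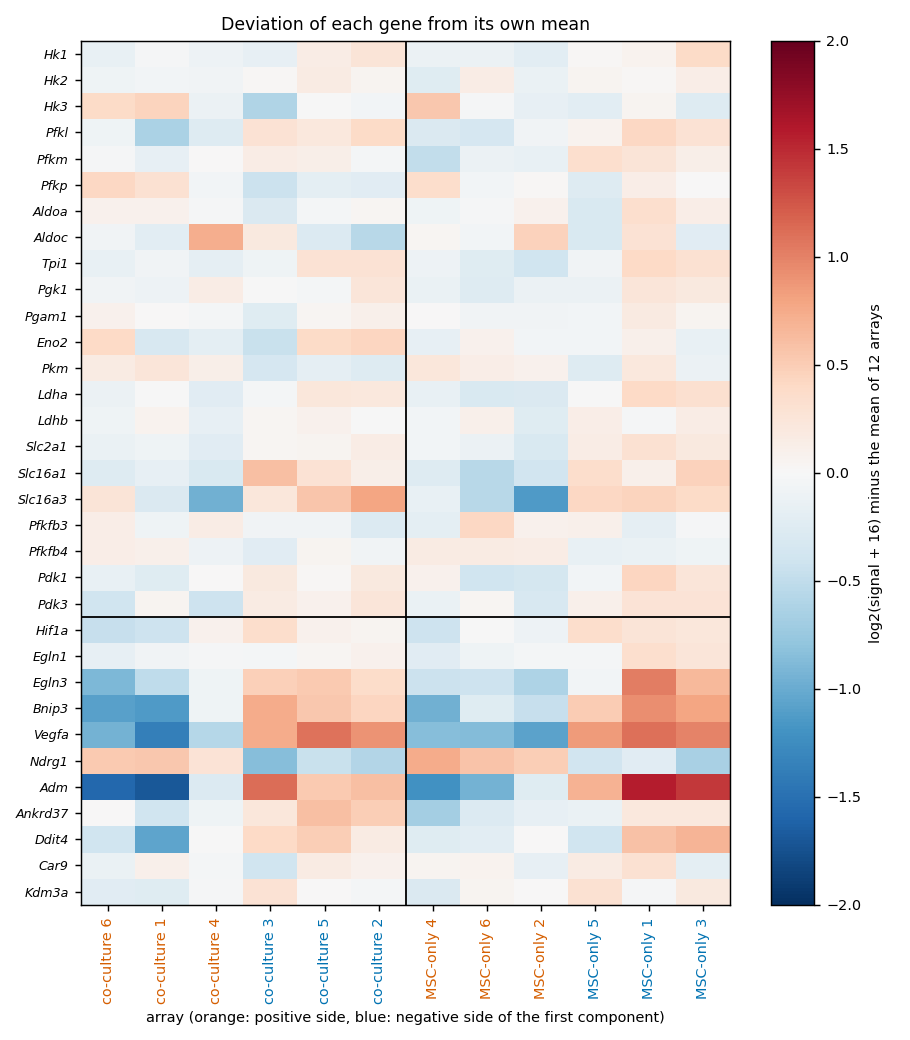
Deviation of each of 33 genes from its own mean over 12 arrays in log2(signal + 16), as a colour from -2 (blue) to 2 (red), with co-cultures left and MSC-only cultures right and each group ordered by the first component. The rows of Vegfa, Adm, Bnip3 and Egln3 turn from blue to red within both groups at the change of side, Ndrg1 turns the other way, and most enzymes stay pale.

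Cell markers and array measures were read on the same division, beside shares over all genes of 4.63% higher on the negative side and 4.14% on the positive side. For values centred on the median, no share over all genes was computed. The median signal was 74.8 to 84.4 on the positive side and 81.0 to 89.0 on the negative side. With each array centred on its median, 2 of 22 glycolysis genes (Pfkl and Slc16a1) and 4 of 11 HIF genes still separated the sides, and Egln3 no longer did. Of 19 macrophage markers, Adgre1, Msr1 and Itgam were higher on all arrays of the positive side and none on the negative side, while the summed signal overlapped (230598 to 292663 on the positive side and 252695 to 331604 on the negative side). Of 10 pan-leukocyte markers, Cd53 was higher on the negative side. Of 13 HSC and progenitor markers, Gata2, Meis1 and Lmo2 were higher on the negative side and Procr on the positive side, and their sum overlapped (8569 to 9314 on the positive side and 8965 to 10094 on the negative side). Of 10 endothelial markers, Vwf was higher on the positive side, while Pecam1 and Tie1 averaged below 16. Of 11 neutrophil markers none separated the sides. Of 18 MSC and stroma markers none separated the sides, and their sum was 26408 to 41360 on the positive side and 35709 to 57435 on the negative side. The sum of 10 erythroid markers was 14526 to 19141 on the positive side and 7210 to 12343 on the negative side, almost wholly through Tfrc, the transferrin receptor, while Alas2, Slc4a1 and Rhag averaged below 16. The part of other cell types in the division of the HIF targets was not tested.

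Entering the side as a block left the group differences of the members as they were and narrowed the interval of 30 of 33, with Aldoa, Eno2 and Car9 slightly wider. The share of all genes whose interval narrowed was not computed, so 30 of 33 is not a trait of the members. Over the whole array, 2338 probe sets had an unadjusted limma p under 0.05 with this block, against 1964 without it. This setting was chosen after the data had been seen. The SE of Vegfa was 0.13 with the block and 0.55 without it, and its interval was -0.33 to 0.23. For Adm the interval was -1.03 to 0.17, for Bnip3 -0.61 to 0.22 and for Ndrg1 -0.41 to 0.05. Ankrd37 came nearest to a difference, at 0.27 with an interval of -0.00 to 0.55 (limma adjusted p = 0.951). Its difference was 0.21 on the positive side and 0.34 on the negative side. Again 0 of the 33 members passed. Within a side, with 3 arrays per group, the difference of Adm was -0.38 (positive) and -0.48 (negative) and that of Vegfa -0.03 (positive) and -0.07 (negative), smaller than the gaps between the sides.

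Co-variation was examined within each side, because a correlation over all 12 arrays would mainly repeat the division. Each side has 6 arrays, for which the exact permutation test over 720 orders reaches no lower than p = 0.00139. Of 1056 correlations (528 pairs on each side), 101 had an unadjusted p under 0.05 for Pearson's r, and after Benjamini-Hochberg adjustment over all of them 0 passed (smallest adjusted p = 0.440 for r and 0.293 for Spearman's rho). The sign was the same on both sides for 295 of 528 pairs. The values that follow are therefore a description. Several of the pairs named below did not keep an absolute r of 0.73 or more with the same sign on both sides. They were Hif1a with Bnip3, Ndrg1 with Car9, Aldoa with Ldha, Hk3 with Pkm, and Pfkp with Hif1a and with Bnip3.

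Between genes of the HIF list, Hif1a and Bnip3 moved together on the positive side (r = 0.99, rho = 0.94, exact p = 0.00417 and 0.0167, adjusted p = 0.440 and 0.463). Without the 2 arrays farthest from the median of Hif1a, r was 0.98. Bnip3 and Adm moved together on the negative side (r = 0.96, rho = 0.83, exact p = 0.00833 and 0.0583, r without 2 arrays 0.94), and on the positive side r was 0.86. Ndrg1 and Car9 had the same order on the negative side (r = 0.95, rho = 1, exact p = 0.00139 and 0.00278, r without 2 arrays 0.85). Hif1a and Kdm3a had a positive r on both sides, at 0.92 (positive) and 0.83 (negative). Their ranks matched less well on the positive side (rho = 0.60, exact p = 0.0806 for r and 0.242 for rho).

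Within glycolysis, Aldoa and Ldha moved together on the negative side (r = 0.98, rho = 0.89, exact p = 0.00556 and 0.0333, r without 2 arrays 0.98). Tpi1 and Ldha did so on the negative side (r = 0.97, rho = 1, exact p = 0.00139 and 0.00278, r without 2 arrays 0.93) and had r = 0.85 on the positive side. On the positive side the highest pair was Hk3 and Pkm (r = 0.94, rho = 0.94, exact p = 0.00833 and 0.0167, r without 2 arrays 0.89). Pkm and Slc2a1 had the highest r that held on both sides, 0.91 (positive) and 0.86 (negative). Pairs of glycolysis genes with r of at least 0.8 made up 19 of 231 (8.23%) on the positive side and 28 of 231 (12.1%) on the negative side. Pairs of HIF genes made up 6 of 55 (10.9%) on the positive side and 5 of 55 (9.09%) on the negative side. Over all pairs of genes the shares were 3.23% (positive) and 3.12% (negative). Among genes with a mean signal of at least 100, a level that nearly all members reach, they were 3.86% (positive) and 3.78% (negative). Pairs within a list share arrays, so no test was applied.

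Between the lists, the order differed by side. On the positive side Pfkp, the platelet-type phosphofructokinase, ran opposite to Hif1a (r = -0.98, rho = -0.94, exact p = 0.00833 and 0.0167, r without 2 arrays -0.99) and to Bnip3 (r = -0.97, rho = -0.83, exact p = 0.0222 and 0.0583, r without 2 arrays -0.96). Hk3 ran opposite to Kdm3a on both sides, at r = -0.96 (positive) and -0.83 (negative). On the positive side rho was -0.83 (exact p = 0.0375 for r and 0.0583 for rho). Of 242 pairs between the lists, 25 (10.3%) had r of -0.8 or lower and 6 (2.48%) r of 0.8 or higher on the positive side. On the negative side 7 (2.89%) had r of -0.8 or lower and 22 (9.09%) r of 0.8 or higher. Over all pairs of genes, r of -0.8 or lower was found in 3.10% (positive) and 3.08% (negative), so the 2.89% on the negative side lay near the background. Among genes with a mean signal of at least 100 these shares were 3.78% (positive) and 3.65% (negative). The 2.48% with r of 0.8 or higher on the positive side lay below the 3.23% over all pairs.

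The wider pathways gave the same result between groups. Of 42 other genes of glucose metabolism, the mean was higher in co-cultures for 23 and lower for 19, with a median of 0.01. The test called 0, and 0 were at an unadjusted p under 0.05. Those with the smallest p were Adpgk, an ADP-dependent glucokinase, at 0.23 (SE 0.16), Pklr, the pyruvate kinase of liver and red cells, at 0.30 (SE 0.22), Pdk4, a pyruvate dehydrogenase kinase induced by fasting, at -0.35 (SE 0.24), and Rpe, a pentose phosphate epimerase, at -0.14 (SE 0.10). Of 43 other HIF pathway genes and targets, 21 lay higher and 22 lower in co-cultures by their mean (median -0.00), with 0 called and 0 at an unadjusted p under 0.05. Those with the smallest p were Flt1, a VEGF receptor, at 0.50 (SE 0.28), Nos2, the inducible nitric oxide synthase, at 0.36 (SE 0.22), Hif3a at -0.26 (SE 0.15) and P4ha1, a collagen prolyl hydroxylase, at -0.21 (SE 0.14). Nos2 averaged 11.4 ± 14.2 in co-cultures and 3.80 ± 1.40 in MSC-only cultures (SD, n = 6 each), a signal at the floor of the array. Flt1 was dim as well, at 35.4 ± 21.0 in co-cultures and 19.0 ± 10.1 in MSC-only cultures. Pklr averaged 51.05 ± 17.4 in co-cultures and 38.8 ± 14.2 in MSC-only cultures. Both lay below the median signal of every array.

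The same division was read in these lists, beside shares over all genes of 4.63% higher on the negative side and 4.14% on the positive side. These genes were part of the component that defines the sides, so their counts are a description only. Of the 43 other HIF genes, 10 were higher on all arrays of the negative side and 1 on the positive side. The 10 were the collagen-modifying enzymes P4ha1, Plod1 and Plod2, the mitochondrial proteins Higd1a and Fam162a, the oxidase of protein folding Ero1a, and the secreted factors Stc1, Angptl4, Edn1 and Mif. The 1 on the positive side was Tfrc. Ero1a had the widest gap, 1.77-fold, with 2600 to 3398 on the negative side and 1173 to 1466 on the positive side. Of the 42 other genes of glucose metabolism, 2 were higher on the negative side, near the share over all genes, and 4 on the positive side. Those on the positive side included Pgd and Taldo1 of the pentose phosphate pathway. Taldo1 read 11721 to 15352 on the positive side and 5117 to 7112 on the negative side, and Pgd 12439 to 13948 on the positive side and 7147 to 8631 on the negative side.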

How the data were processed

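RNA of 12 cultures was hybridized to GeneChip Mouse Genome 430 2.0 arrays, 1 array per sample. The authors scanned the arrays and computed 1 signal per probe set with GeneChip Operating Software, and the deposited intensity values are linear, scaled per array to a common trimmed mean and not quantile-normalized. How probes were summarised and which target the scaling had is not given in the sources used here. Probe sets with 1 gene symbol in the platform annotation (34945 of 45037) were named, 932 carried several symbols and 9160 none here. Of the named ones, 34741 matched the RefSeq gene table, used for names only.

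Signals were taken as log2(signal + 16), and co-cultures were set against MSC-only cultures by lmFit and eBayes of limma (version 3.58.1, R 4.3.3) with neither block nor filter, adjusted over all probe sets at a threshold of 0.05. The comparison was tested on simulated data. The probe set with the highest mean stood for its gene. Principal components were computed on centred values without member probe sets. Correlations planned over 12 arrays were computed within the 2 sides of the first component, because the arrays fell into separate clusters. A member received full statistics if it had one of the 4 smallest p in its direction within glycolysis or the HIF list, an array flagged by Dixon's ratio, one of the widest or narrowest spreads, or a place in the strongest pairs. Of the wider lists, the 2 smallest p per direction were named. The genes that separate the sides were named after their values were seen. Members and lists were chosen with earlier results of these data known. Promoter windows come from RefSeq tables of GRCm38.p6, which held entries for 24 glycolysis and 10 HIF members. Alternatives covered scaling, constant, dim probe sets, replicate block, variance model, the methods' test, probe set summary, side, sex-linked signal and leaving out arrays. The number of arrays limits the precision.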

Additional observations from a re-analysis of the deposited data

Results flagged for a closer look

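Aldoa, the main aldolase of most tissues, had 1 array apart from the rest of its group. Co-culture 3 read 12838, while the other 5 co-cultures read 15246 to 16523. Its gap to the nearest of the others was 0.681 of the whole range of the group, above Dixon's critical value for 6 arrays at 95%. In MSC-only cultures Aldoa read 12699 to 19770, so that the low array lay within the range of the other group. With 33 genes examined in 2 groups, chance alone flags about 1 group in 20.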

How the results depend on the processing

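The count of 2 probe sets that passed over the whole array was 1 with a constant of 1, quantile normalization, centring on the median or the 75th percentile, the methods' test or the side as a block. It was 0 with a constant of 64, a mean signal of at least 100, the trend and robust options, numbers 3 and 4 only, or either side only, and 8 without numbers 3 and 4. Member genes called were 0 in every setting. Leaving out 1 array gave 0 to 4 probe sets (0 without co-culture 3 or MSC-only 1, 1 without co-culture 2, 4 or 5, 3 without co-culture 6 or MSC-only 3 or 4, and 4 without MSC-only 6), 8 to 18 glycolysis genes and 6 to 10 HIF genes with a lower mean. With deviations from group means, pairs with r of at least 0.8 were 17 between the lists on the positive side and 10 within HIF on the negative side. Among all member pairs on the positive side, r of -0.8 or lower also rose, from 30 to 54. Subtracting group means leaves fewer free values per correlation, and no share over all genes was computed for this setting. Its counts therefore cannot be set against the main ones. With the mean of all probe sets, pairs between the lists on the negative side were 13. With median centring, 18 of 22 glycolysis genes had a lower mean and 2 separated the sides.

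Same-numbered arrays of both groups deviated together with r over 0.1 in 4 of 6 pairs (r of -0.161 to 0.154), and 1 of 6 co-cultures correlated best with its own number. Numbers 3 and 4 were alike in sex-linked signal across the groups. For numbers 1, 2, 5 and 6, Y-linked signal was present in both groups, while Xist was high in co-cultures only. Sample titles share an MSC number between a co-culture and an MSC-only culture. The sources name no shared animal, so pairing was not established. With the replicate number as a block, 0 probe sets passed, and 2136 had an unadjusted p under 0.05 against 1964 without the block.

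Of 531 values of 19 named genes, 45 changed sign, in 16 genes, and 0 were called. On numbers 3 and 4 only, HIF genes with a lower mean were 4, and the differences were -0.49 (Slc16a3), -0.17 (Eno2), 0.15 (Pfkfb3), 0.32 (Adm), 0.19 (Kdm3a), 0.31 (Hif1a), 0.41 (Bnip3) and 0.021 (Vegfa). Without numbers 3 and 4 they were 0.015 (Aldoa), 0.064 (Pgam1), 0.026 (Ldhb) and -0.0004 (Hk2). On the positive side only, glycolysis genes with a lower mean were 5, and the differences were 0.0265 (Pkm), 0.012 (Slc2a1), 0.053 (Aldoa), 0.062 (Pgam1) and 0.0052 (Ldhb). On the negative side only, Pgk1 was -0.043. With the mean of all probe sets, Pgk1 was -0.049, Pfkfb3 0.069 and Ldhb 0.043. With median centring, Hk2 was -0.029. Leaving out 1 array gave ranges of -0.012 to 0.41 (Slc16a3), -0.020 to 0.19 (Slc16a1), -0.12 to 0.0040 (Pfkfb3), -0.11 to 0.014 (Aldoa), -0.40 to 0.013 (Bnip3), -0.27 to 0.22 (Vegfa), -0.037 to 0.031 (Pgam1), -0.071 to 0.010 (Ldhb) and -0.0375 to 0.042 (Hk2). The cause of these changes of sign was not tested, and the signs of differences this small carry no direction. Correlations without 1 array, or without numbers 3 and 4, would rest on fewer than 6 arrays per side and were not run. Dim probe sets near the floor limit the values of Slc16a3, Eno2 and Ankrd37.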
